A study of Homo sapiens with 13 samples.

Results

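The genes described here are 32 human genes of glycolysis and of the response to low oxygen, out of the 61541 human genes in the tables. They were taken by symbol and Ensembl identifier from a fixed list, and all 32 were found. By role they comprise 4 transporters of glucose and lactate, 9 enzymes of the preparatory phase of glycolysis, 6 of its payoff phase, 5 genes that set the fate of pyruvate, 2 regulators of the phosphofructokinase step and 6 further genes of the hypoxia response. Of the 32, 30 reached a mean of 1 CPM (read counts scaled to a common library size) in each series of libraries and were tested. CA9, a carbonic anhydrase of the cell surface, and ANKRD37, an ankyrin repeat protein, did not, at 0.113 to 0.411 CPM and 0.184 to 0.602 CPM over the 13 libraries.

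Glycolysis converts glucose to pyruvate in the cytosol. The preparatory phase spends ATP to phosphorylate and split the sugar, and the payoff phase regains ATP and NADH. Pyruvate is then reduced to lactate and exported, or enters mitochondria and is oxidised. When oxygen is low, the transcription factor HIF-1, a dimer of HIF1A and ARNT, is no longer degraded and raises many of these genes. Prolyl hydroxylases of the EGLN family mark HIF for degradation and are themselves among its targets. Human pluripotent cells are known for a high rate of glycolysis.

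The study followed human embryonic stem cells of the RUES2 line that carry a GFP::SMAD4 fusion, so that every library, controls included, came from this tagged line. For the time series, cells received 100 ng/mL BMP4, 5 µM IWP2 (an inhibitor of Wnt secretion) and a ROCK inhibitor, and were collected at 0 h (2 libraries) and at 4, 12, 20, 28 and 42 h (1 library each). For the dose response, cells were collected at 5 h, with the same BMP4, IWP2 and ROCK inhibitor and LDN-193189 (LDN), which blocks BMP receptor kinases, at 0, 10, 30, 100 or 300 nM, or in mTeSR medium with none of these by its label (1 library each). The comparisons ask how these genes moved while BMP signalling turned pluripotent cells toward an amnion-like fate, and how their early level followed the strength of BMP signalling. By label the 0 h cells had this treatment too, which was read here as collection when it began.

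The libraries held 37957385 to 71333471 counts on genes in the time series and 15600931 to 33989998 in the dose response, where the untreated library was the smallest. The series differ in RNA kit and in library preparation (ribosomal depletion over time, polyA selection over dose), so levels were compared only within a series. Mitochondrial genes took 7.60% and 4.29% of the counts in 0 h replicates 1 and 2, 2.01% to 4.23% later, 7.89% in the untreated library and 4.22% to 4.49% at the 5 LDN doses. All 5 pluripotency markers were present at 0 h, where LIN28A had 2968 and 2888 CPM, while the 5 amnion-like markers were between 0.0136 and 1.92 CPM. By 42 h NANOG was at 1.24 CPM, SOX2 at 13.4 CPM and DNMT3B at 736 CPM. LIN28A was still at 2083 CPM at 42 h, and POU5F1 at 1321 CPM, between its 0 h values of 986 and 1675 CPM. HAND1 was then at 3368 CPM and the other amnion-like markers between 158 and 424 CPM. TBXT, SOX17, PAX6 and SOX1, markers of other lineages, stayed between 0 and 1.53 CPM in all 13 libraries. MIXL1 (0.479 to 1.40 CPM), EOMES (0.134 to 3.53 CPM) and FOXA2 (0 to 4.15 CPM) were low as well. In such bulk libraries fewer cells of a type and less RNA per cell cannot be told apart.

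Sequences upstream of the start site are given for SLC16A3, EGLN3, SLC2A1 and HK2, since SLC16A3, SLC2A1 and HK2 passed the tests over both hours and LDN dose and EGLN3 was the 1 gene at least 2-fold higher at 4 h. They are RefSeq sequences on GRCh38.p14, 5′ to 3′ on the strand of the gene, of up to 250 bases before the start site without bases that lie in an exon of the gene itself. Capitals mark ACGTG or GCGTG, the core letters of a HIF site, on either strand. The windows are chr17:82228792-82229041 on the plus strand (SLC16A3, 1 of its 5 windows), chr14:33951082-33951324 on the minus strand (EGLN3), chr1:42958894-42959118 on the minus strand (SLC2A1) and chr2:74833877-74834126 on the plus strand (HK2, 1 of its 2 windows).
SLC16A3: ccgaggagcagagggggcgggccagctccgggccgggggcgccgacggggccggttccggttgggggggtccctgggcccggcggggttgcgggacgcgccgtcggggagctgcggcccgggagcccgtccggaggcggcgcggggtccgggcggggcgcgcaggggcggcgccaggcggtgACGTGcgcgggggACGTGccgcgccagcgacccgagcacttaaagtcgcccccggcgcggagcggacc
EGLN3: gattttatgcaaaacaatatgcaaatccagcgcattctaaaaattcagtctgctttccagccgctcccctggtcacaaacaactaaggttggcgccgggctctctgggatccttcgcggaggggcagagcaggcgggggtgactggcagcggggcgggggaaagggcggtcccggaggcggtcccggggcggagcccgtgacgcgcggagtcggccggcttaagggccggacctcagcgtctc
SLC2A1: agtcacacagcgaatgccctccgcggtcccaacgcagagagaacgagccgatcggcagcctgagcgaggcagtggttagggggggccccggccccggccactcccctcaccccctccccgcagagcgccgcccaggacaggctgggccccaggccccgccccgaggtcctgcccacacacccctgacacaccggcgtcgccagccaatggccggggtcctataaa
HK2: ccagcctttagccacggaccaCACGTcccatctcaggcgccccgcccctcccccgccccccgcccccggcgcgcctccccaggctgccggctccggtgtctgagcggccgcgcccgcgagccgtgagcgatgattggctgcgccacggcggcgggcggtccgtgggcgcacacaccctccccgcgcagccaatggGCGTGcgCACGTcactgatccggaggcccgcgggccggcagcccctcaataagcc

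The SLC16A3 window held 2 such matches, which began 55 and 68 bases before the start site, and the HK2 window held 3, between 48 and 229 bases before it. The EGLN3 and SLC2A1 windows held none. Windows were found for 29 of the 32 genes, and SLC2A3, SLC16A1 and VEGFA had no entry. At least 1 window held ACGTG in 19 of the 29 genes (65.5%, against 21.7% of all genes), GCGTG in 15 (51.7%, against 36.2%) and either in 24 (82.8%, against 47.4%). A gene with several windows has more chances to hold a match. Counted by window, ACGTG was in 40.0% of the 55 windows of these genes and in 18.5% of all 35116 windows, and GCGTG in 30.9% and 32.2%, respectively. ACGTG is also part of CACGTG, the E-box of MYC and of other helix-loop-helix factors. GGCGCC, letters bound by the SMADs of the BMP branch, was in 14 of the 29 genes (48.3%, against 19.0%) and in 32.7% of their windows (against 16.4% of all windows). Of the windows shown, that of SLC16A3 held 2 such matches, those of EGLN3 and HK2 1 each and that of SLC2A1 none. These matches are a description of letters, not of bound sites.

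Over the 42 h the group did not move as 1 block. A linear trend in hours was fitted to the 15976 genes whose mean reached 1 CPM (edgeR quasi-likelihood test, Benjamini-Hochberg adjusted p at 0.05). Among the 30 genes tested, 6 rose (20.0%, where 19.2% of all genes rose) and 6 fell (20.0%, where 17.5% of all genes fell), so the share that moved was near that of the genome. The genes that rose were SLC2A1, SLC2A3, SLC16A3, PFKL, PKM and PFKFB4, and those that fell were SLC16A1, HK2, GPI, ENO2, LDHA and PDK3. The median fitted change was 0.03 on the log2 scale over 42 h, from −1.49 to 4.85, and that of all genes was 0.00. Together the 32 genes took 1.08% and 1.24% of all counts at 0 h, 1.03% at 4 h and 1.25% at 42 h. Since each later time was a lone library, these p-values set the slope against the scatter about the line, any curve in the profile included. The time series had no untreated library after 0 h, so effects of BMP4 and of time in culture cannot be told apart.

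Later values are given below in the order of the 5 times from 4 to 42 h. The glucose transporters gave some of the largest changes. SLC2A3 (GLUT3, a high-affinity glucose transporter) stood at 467 and 372 CPM in the 0 h replicates, then 289, 573, 1367, 1703 and 1821 from 4 to 42 h. SLC2A1 (GLUT1, the basal glucose transporter) stood at 216 and 234 CPM at 0 h, then 119, 111, 259, 369 and 668 from 4 to 42 h. Both were below either 0 h library at 4 h and above both from 20 h on. SLC2A3 rose by a fitted log2 change of 2.71 ± 0.44 (SE, adjusted p = 0.00249) and SLC2A1 by 1.73 ± 0.47 (adjusted p = 0.0217) over 42 h.

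The lactate transporters moved in opposite directions. SLC16A3 (MCT4, the exporter of highly glycolytic cells) was at 2.59 and 2.58 CPM at 0 h, then 4.85, 6.49, 33.1, 49.2 and 30.2 from 4 to 42 h. SLC16A1 (MCT1, a carrier of lactate and pyruvate in either direction) was at 616 and 499 CPM at 0 h, then 402, 309.6, 248, 244 and 284 from 4 to 42 h. No later library of either gene overlapped the 0 h pair, SLC16A3 lying above it and SLC16A1 below. The fitted changes were 4.85 ± 0.96 for SLC16A3 (adjusted p = 0.00603) and −1.07 ± 0.31 for SLC16A1 (adjusted p = 0.0275). SLC16A3 lies at chr17:82217934-82261129 on GRCh38 and shares 482 of its 9236 exonic bases with CSNK1D on the other strand, which held 135 to 185 CPM (on library totals) in these libraries. The sources do not say whether strand was used in counting, and its part in the SLC16A3 values was not tested.

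**Figure D1:**
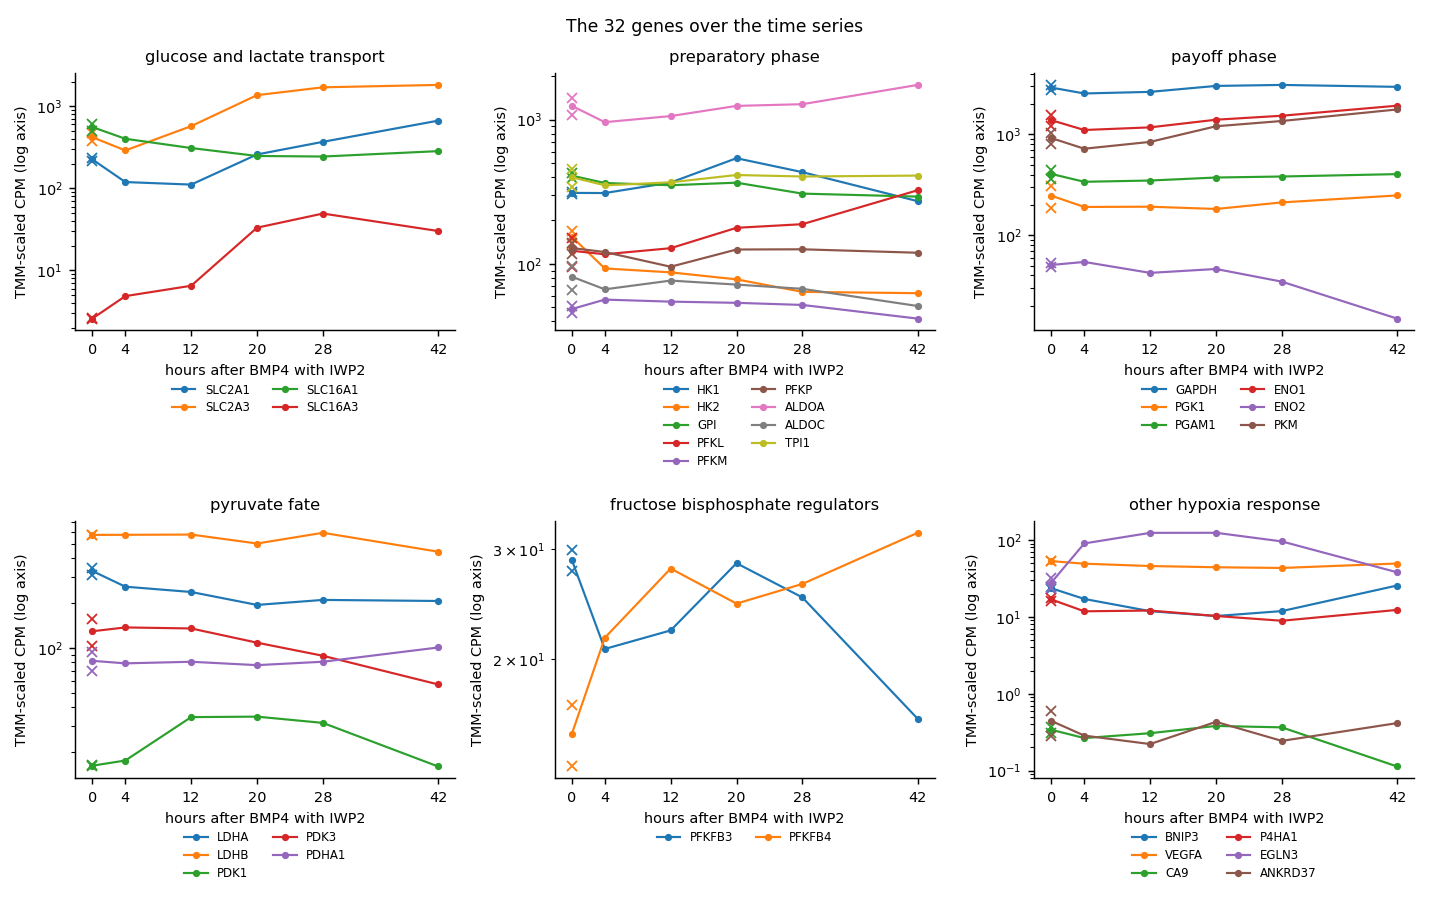
TMM-scaled CPM (log axis) of the 32 genes against hours after BMP4 with IWP2, in panels by role. Crosses are the 2 libraries at 0 h, lines join their mean to the single later libraries. SLC2A3 reached 1821 CPM and SLC16A3 peaked at 49.2 CPM, whereas GAPDH stayed between 2549 and 3098 CPM.

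In the preparatory phase, the enzymes of the same step parted. HK2, an inducible hexokinase bound to mitochondria, was at 170.1 and 138 CPM at 0 h, then 93.1, 87.5, 78.2, 64.1 and 62.7 from 4 to 42 h. Every later library was below both at 0 h, and the gene fell by 1.28 ± 0.27 on the log2 scale (adjusted p = 0.00831). HK1, the constitutive hexokinase, was at 317 and 304 CPM at 0 h, highest at 20 h with 539.5 CPM and lowest at 42 h with 272 CPM, and its linear trend did not pass (0.20 ± 0.38, adjusted p = 0.708). Of the phosphofructokinases, which carry out the committed step, PFKL was at 95.5 and 151 CPM at 0 h, then 117, 129, 178, 189 and 324 from 4 to 42 h, a rise of 1.36 ± 0.24 (adjusted p = 0.00381). From 20 h on, PFKL was above both 0 h libraries, which themselves differed by 0.66 on the log2 scale. PFKM (41.8 to 56.7 CPM) and PFKP (95.7 to 140.3 CPM) did not pass the test.

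GPI, which interconverts glucose and fructose phosphates, fell slightly, from 425 and 392 CPM at 0 h to 293 CPM at 42 h (−0.46 ± 0.15, adjusted p = 0.0437). ALDOA, the main aldolase here, spanned 958 to 1735 CPM with its highest value at 42 h, and ALDOC, a second aldolase gene, 51.2 to 96.8 CPM with its lowest value at 42 h. Neither passed the test (adjusted p = 0.115 and 0.0986). TPI1, which interconverts the triose phosphates, stayed between 342 and 455 CPM, a range set by the 0 h replicates.

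In the payoff phase, most genes stayed near their starting level. GAPDH, the triose phosphate dehydrogenase, was at 2741 and 3089.9 CPM at 0 h and between 2549 and 3098 CPM later (0.13 ± 0.16, adjusted p = 0.556). PGAM1, the phosphoglycerate mutase, spanned 339 to 447 CPM. PGK1, the phosphoglycerate kinase, differed more between its 0 h replicates (185 and 309 CPM) than among the later libraries (182 to 248 CPM). PKM, the pyruvate kinase gene, was at 803 and 1036 CPM at 0 h, then 721, 843, 1205, 1359 and 1768 from 4 to 42 h, and rose by 1.07 ± 0.23 (adjusted p = 0.0081). Of the enolases, ENO1, the ubiquitous form, spanned 1106 to 1928 CPM with its highest value at 42 h (adjusted p = 0.0843). ENO2, known as the neuronal form, was at 52.7 and 48.8 CPM at 0 h, then 54.3, 42.3, 46.3, 34.6 and 14.9 from 4 to 42 h, a fall of 1.49 ± 0.33 (adjusted p = 0.00999).

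Among genes that set the fate of pyruvate, LDHA, the lactate dehydrogenase subunit of glycolytic tissue, was at 309.8 and 345 CPM at 0 h, then 257, 237, 194, 209.7 and 206 from 4 to 42 h. All later libraries were below both 0 h libraries, and LDHA fell by 0.68 ± 0.21 (adjusted p = 0.0334). LDHB, the other main subunit, stayed between 441 and 591 CPM (adjusted p = 0.225). Of the pyruvate dehydrogenase kinases, which restrain entry of pyruvate into mitochondrial oxidation, PDK3 was at 156 and 103 CPM at 0 h, then 137, 135, 108, 88.6 and 56.9 from 4 to 42 h, a fall of 1.15 ± 0.27 (adjusted p = 0.0128). PDK1 was highest between 12 and 28 h, with 16.4 and 16.1 CPM at 0 h, then 17.6, 34.4, 34.6, 31.5 and 16.1 from 4 to 42 h, and a line in hours did not pass for it (adjusted p = 0.562). PDHA1, a subunit of the dehydrogenase that these kinases act on, was at 70.4 and 93.5 CPM at 0 h and between 76.7 and 100.7 CPM later.

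PFKFB3 and PFKFB4 make and break down fructose 2,6-bisphosphate, an activator of phosphofructokinase. PFKFB4 was at 13.4 and 16.9 CPM at 0 h, then 21.6, 27.9, 24.5, 26.4 and 31.9 from 4 to 42 h, and rose by 0.93 ± 0.27 (adjusted p = 0.0307). PFKFB3 was at 27.7 and 29.9 CPM at 0 h, 20.7 at 4 h and 16.0 at 42 h, with 28.5 CPM at 20 h (adjusted p = 0.182). PFKFB4 was thus above both 0 h libraries at every later time, which PFKFB3 never was.

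Of the further hypoxia genes, EGLN3 and BNIP3 had arc-shaped profiles that a line missed (adjusted p = 0.726 and 0.89). EGLN3, a prolyl hydroxylase of HIF, was at 23.5 and 32.3 CPM at 0 h, then 90.3, 124, 124, 95.9 and 38.0 from 4 to 42 h. Its peak was 4.45-fold above the 0 h mean. BNIP3, a receptor for mitophagy, was lowest in the middle of the series, with 23.0 and 24.2 CPM at 0 h, then 17.1, 11.9, 10.3, 11.9 and 25.6 from 4 to 42 h. Features named as BNIP3 copies held 12.9% to 40.1% of the summed counts in the time series, so the BNIP3 level is uncertain. P4HA1, a collagen prolyl hydroxylase, was at 17.4 and 16.3 CPM at 0 h and between 8.90 and 12.3 CPM at every later time (adjusted p = 0.167). VEGFA, the angiogenic growth factor, was between 43.3 and 53.6 CPM throughout (adjusted p = 0.442).

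Between 0 h and 42 h, 5 genes were at least 2-fold higher (16.7% of the 30, against 14.4% of all genes) and 3 at least 2-fold lower (10.0%, against 13.2%). Those higher were SLC16A3 (11.7-fold), SLC2A3 (4.34-fold), SLC2A1 (2.97-fold), PFKL (2.62-fold) and PFKFB4 (2.11-fold). Those lower were ENO2 (3.41-fold), HK2 (2.46-fold) and PDK3 (2.27-fold). Without the library at 42 h, the calls of SLC2A1 (log2 change 1.15, rescaled to 42 h), GPI (−0.50), PFKL (1.02), ENO2 (−0.74), PKM (0.97), PDK3 (−0.78) and PFKFB4 (1.14) were lost, those of SLC2A3 (3.45), SLC16A3 (6.66), SLC16A1 (−1.87), HK2 (−1.77) and LDHA (−1.04) remained, and HK1 (1.06), PDK1 (1.78), BNIP3 (−1.66) and P4HA1 (−1.28) passed. On library totals, which shift the median of all genes by −0.23 between 0 h and 42 h, the split was 5 rising and 9 falling genes, where 13.3% of all genes rose and 25.5% fell.

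The first hours could be read in both series without a shared library. At 4 h, 15 of the 30 genes were below both 0 h libraries (50%, against 32.5% of all genes) and 6 above both (20.0%, against 34.2%). Those below were SLC2A1, SLC2A3, SLC16A1, HK2, GPI, ALDOA, GAPDH, PGAM1, ENO1, PKM, LDHA, PFKFB3, BNIP3, VEGFA and P4HA1. Those above were SLC16A3, PFKM, ENO2, PDK1, PFKFB4 and EGLN3. The median log2 ratio of 4 h over the 0 h mean was −0.19 for the 30 genes and −0.01 for all genes. Most of these differences were small, and 1 gene, EGLN3 (log2 ratio 1.67), was at least 2-fold higher (3.33%, against 3.89% of all genes), while 0 were at least 2-fold lower (0.732% of all genes).

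At 5 h in the dose response, the library with BMP4, IWP2 and no LDN could be set against the untreated library. EGLN3 was at 116 CPM with BMP4 and 30.5 CPM untreated (3.80-fold). SLC16A3 was at 4.42 and 0.937 CPM (4.71-fold), the latter from 14 counts. With 0.5 CPM added, the log2 ratios of EGLN3 and SLC16A3 were 1.91 and 1.77. These 2 of the 30 genes were at least 2-fold higher with BMP4 (6.67%, against 4.05% of all genes). SLC2A1, at 142 CPM with BMP4 and 322 CPM untreated, was the 1 gene at least 2-fold lower (3.33%, against 1.96%). SLC16A1 (335 against 617 CPM), BNIP3 (18.3 against 32.7 CPM), SLC2A3 (418 against 712 CPM), PFKFB3 (20.8 against 35.2 CPM), HK2 (91.0 against 137 CPM) and GAPDH (2872 against 4064 CPM) were also lower with BMP4, by less than 2-fold. Each group was 1 library, so there is no test. The untreated library also had no IWP2 or ROCK inhibitor by its label and the smallest depth, and these differences cannot be told apart from that of BMP4. The sign of the difference was the same at 4 h against 0 h for 20 of the 30 genes (66.7%), and for 65.8% of all genes.

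**Figure D2:**
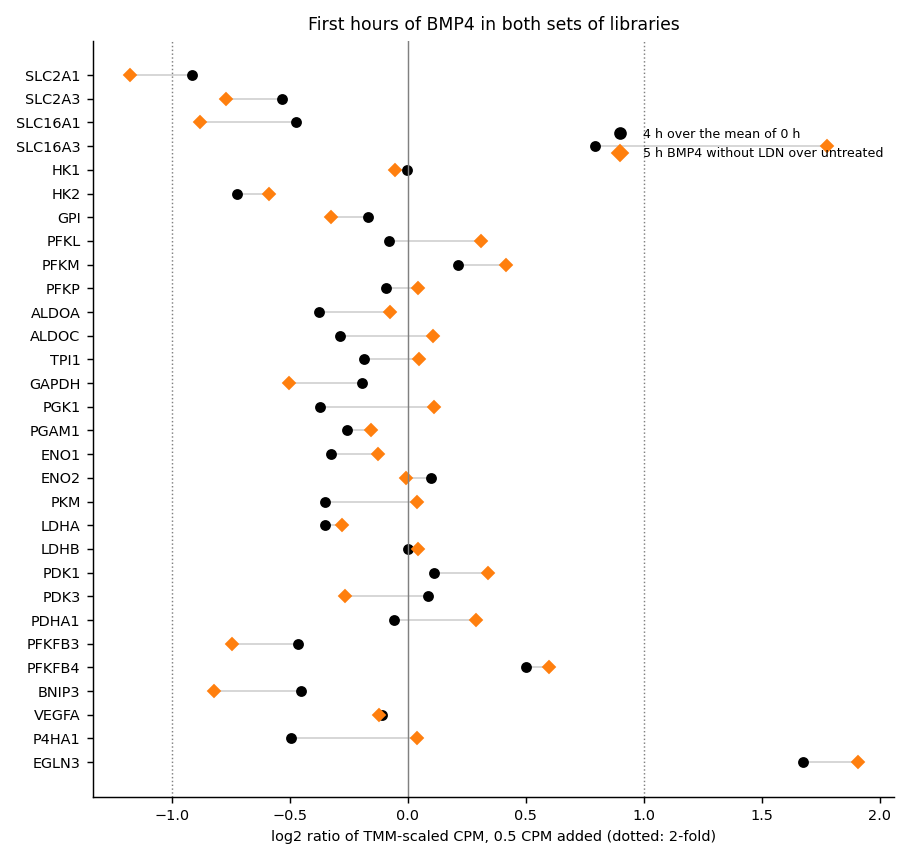
Log2 ratio of TMM-scaled CPM (0.5 CPM added) at 4 h over the 0 h mean (circles) and at 5 h with BMP4 without LDN over untreated (diamonds), for the 30 genes tested. EGLN3 lies at 1.67 and 1.91 and SLC16A3 at 0.79 and 1.77, whereas SLC2A1 lies at −0.91 and −1.18.

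Several of these genes were ordered by the dose of LDN. A trend over the dose steps was fitted to 14874 genes in the 5 libraries with BMP4, in which 7 of the 30 genes rose with LDN (23.3%, against 10.4% of all genes) and 3 fell (10.0%, against 10.9%). Those that rose were SLC2A1, SLC16A1, HK2, PFKP, PFKFB3, BNIP3 and VEGFA, and those that fell were SLC16A3, PDK1 and EGLN3. Along the doses, 8 genes were higher at every step (26.7%, against 7.24% of all genes), the 7 above and TPI1, and 4 lower at every step (13.3%, against 7.37%), the 3 above and PFKFB4. The median fitted change over the 4 steps was 0.06 on the log2 scale (from −1.28 to 0.80), against 0.00 for all genes. Each dose was also a lone library, so deviations from the line set the error here as well.

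Of the genes that fell with LDN, EGLN3 was at 116, 94.8, 84.7, 64.8 and 46.7 CPM from 0 to 300 nM LDN, and 30.5 CPM in the untreated library. SLC16A3 was at 4.42, 3.03, 2.91, 2.01 and 1.80 CPM, and 0.937 CPM untreated. PDK1 was at 17.9, 16.0, 15.5, 13.7 and 12.4 CPM, and 14.1 CPM untreated. For EGLN3 and SLC16A3 the untreated library lay below all 5 doses, and for PDK1 within their range. From 0 to 300 nM, EGLN3 fell by 1.25 ± 0.08 (adjusted p = 4.72e-07), SLC16A3 by 1.28 ± 0.23 (adjusted p = 0.00164) and PDK1 by 0.51 ± 0.09 (adjusted p = 0.00197) on the log2 scale. Without the 0 nM library the SLC16A3 trend was −1.11 with an adjusted p of 0.0568. PFKFB4, at 19.0, 19.0, 18.2, 17.0 and 16.7 CPM, did not pass (adjusted p = 0.107).

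Among the genes that rose, SLC2A1 was at 142, 160.3, 185, 213 and 245 CPM from 0 to 300 nM, and 322 CPM untreated. SLC16A1 was at 335, 358, 392, 430.0 and 462 CPM, and 617 CPM untreated. HK2 was at 91.0, 104, 113, 119.8 and 129.6 CPM, and 137 CPM untreated. In all 3 genes each dose was above the one before, and the untreated library was above the 300 nM library. The fitted changes were 0.80 ± 0.04 for SLC2A1 (adjusted p = 6.28e-08), 0.48 ± 0.04 for SLC16A1 (adjusted p = 1.94e-06) and 0.48 ± 0.05 for HK2 (adjusted p = 1.56e-05).

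BNIP3 and PFKFB3 behaved alike in this respect. BNIP3 was at 18.3, 20.8, 24.7, 26.8 and 28.8 CPM, and 32.7 CPM untreated, and PFKFB3 at 20.8, 22.2, 25.6, 28.4 and 28.6 CPM, and 35.2 CPM untreated. Their fitted changes were 0.67 ± 0.08 (adjusted p = 0.000109) and 0.51 ± 0.08 (adjusted p = 0.000949), where BNIP3 copies held 7.58% to 16.3% of the summed counts. VEGFA and PFKP rose with LDN, but their untreated level was not above the doses. VEGFA was at 49.9, 52.2, 52.7, 58.5 and 71.0 CPM, and 54.3 CPM untreated (0.49 ± 0.08, adjusted p = 0.00071). PFKP was at 143, 155, 166, 169 and 176 CPM, and 139 CPM untreated (0.28 ± 0.04, adjusted p = 0.000645). With the untreated library as a further step, the VEGFA (0.27) and PFKP (0.05) trends no longer passed.

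**Figure D3:**
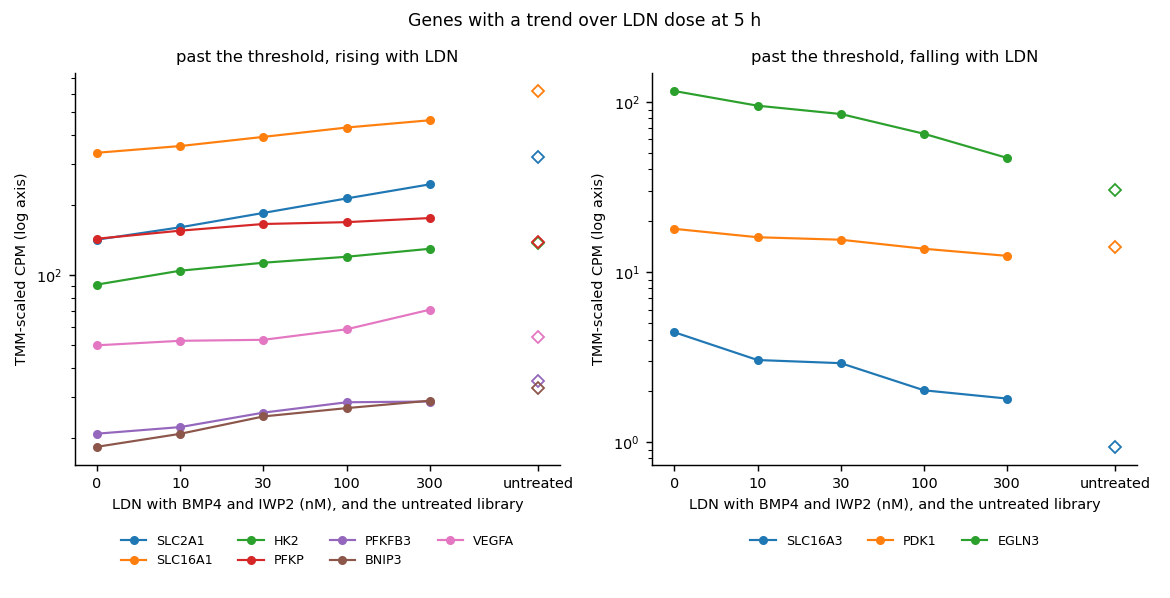
TMM-scaled CPM (log axis) at 5 h against LDN dose, drawn as equal steps, for the 7 genes that rose and the 3 that fell, with the untreated library as an open diamond. EGLN3 goes from 116 to 46.7 CPM and SLC2A1 from 142 to 245 CPM, each with the untreated value beyond the 300 nM value (HK2 and PFKP overlap at untreated).

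The other 20 genes tested did not pass over dose. Among them, HK1 stayed between 365 and 373 CPM at all 5 doses (0.00 ± 0.04), PKM between 988 and 1009.9 CPM (−0.02 ± 0.03) and GAPDH between 2843 and 2920.4 CPM (0.03 ± 0.03). SLC2A3, which gave the second largest rise over hours, was at 418, 389, 397, 421 and 437 CPM (0.10 ± 0.05, adjusted p = 0.227). LDHA was at 380.2 CPM without LDN and 405 CPM at 300 nM (0.11 ± 0.04, adjusted p = 0.0761).

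SLC2A1, SLC16A1, SLC16A3 and HK2 passed in both trends, 4 of the 30 genes (1331 of the 14562 genes tested in both did). SLC16A1 and HK2 fell over the hours after BMP4 with IWP2 and rose with LDN dose, and SLC16A3 did the reverse. SLC2A1 rose in both, where its early course (119 CPM at 4 h against 216 and 234 CPM at 0 h) was downward. PFKL, PKM, PFKFB4, SLC2A3, GPI, ENO2, LDHA and PDK3 passed over hours alone, and the difference between the trends was not tested.

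**Figure D4:**
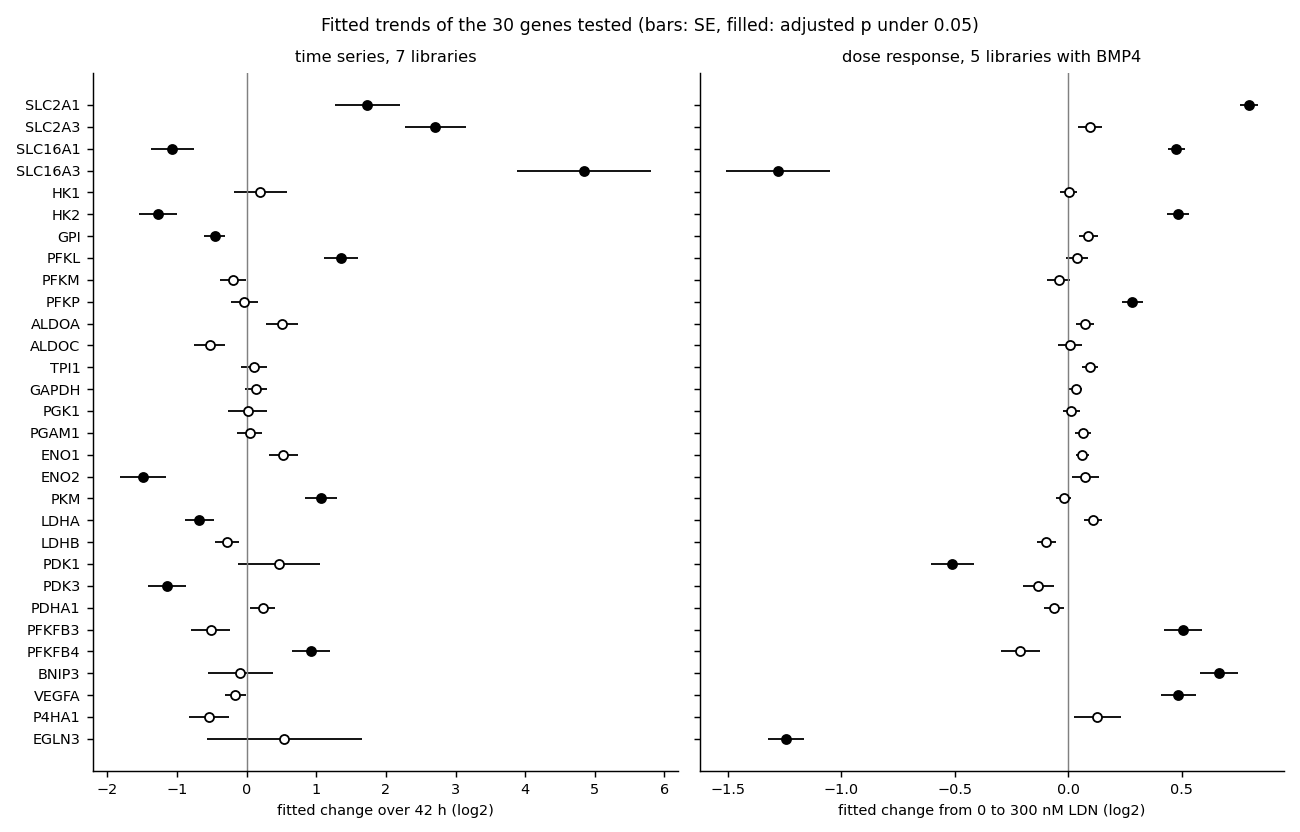
Fitted log2 change over 42 h (left) and from 0 to 300 nM LDN (right) of the 30 genes tested, with SE, filled where the adjusted p is under 0.05. SLC16A3 lies at 4.85 over time and −1.28 over dose, HK2 at −1.28 and 0.48, and SLC2A1 at 1.73 and 0.80.

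Ratios of FPKM (a unit scaled for depth and gene length) within a library describe which of 2 related genes prevailed. The pairs were chosen with the levels known, and no test was run. SLC2A3 over SLC2A1 was 0.732 and 0.534 at 0 h, then 0.942, 2.21, 2.004, 1.90 and 1.06 from 4 to 42 h. In the time series the transporter with the higher FPKM thus changed from SLC2A1 to SLC2A3 by 12 h. At 5 h this ratio was 1.37 in the untreated library and 0.449 to 0.937 over the LDN doses, but this gap depended on the unit. By CPM both genes were higher untreated than at any dose (SLC2A1 322 against 142 to 245, SLC2A3 712 against 389 to 437). By FPKM SLC2A3 was (225 against 113 to 125), while SLC2A1 lay within the doses (164 against 130 to 279). The cause of this difference between units was not tested. By CPM, which is not scaled for gene length, SLC2A3 was the higher in every library. SLC16A3 over SLC16A1 was 0.00813 and 0.00976 at 0 h and 0.0228 at 4 h, with a highest value of 0.464 at 28 h, so SLC16A1 stayed the more abundant. HK2 over HK1 was 0.331 and 0.280 at 0 h, 0.0903 at 20 h and 0.142 at 42 h.

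PFKL over PFKP was 0.678 and 0.907 at 0 h and 2.31 at 42 h, and PFKL over PFKM 1.52 and 2.12 at 0 h and 5.97 at 42 h. ENO2 over ENO1 was 0.0371 and 0.0272 at 0 h and 0.00736 at 42 h, and ALDOC over ALDOA 0.0469 and 0.0540 at 0 h and 0.0234 at 42 h. By 42 h the liver type of phosphofructokinase was the most abundant of its 3 forms, and ENO2 and ALDOC had a smaller part beside ENO1 and ALDOA than at 0 h. LDHA over LDHB lay between 0.181 and 0.319 in the time series, so LDHB was the more abundant throughout. PFKFB4 over PFKFB3 was 0.675 and 0.698 at 0 h and 2.57 at 42 h, and PDK1 over PDK3 0.225 and 0.365 at 0 h, 0.832 at 20 h and 0.464 at 42 h.

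**Figure D5:**
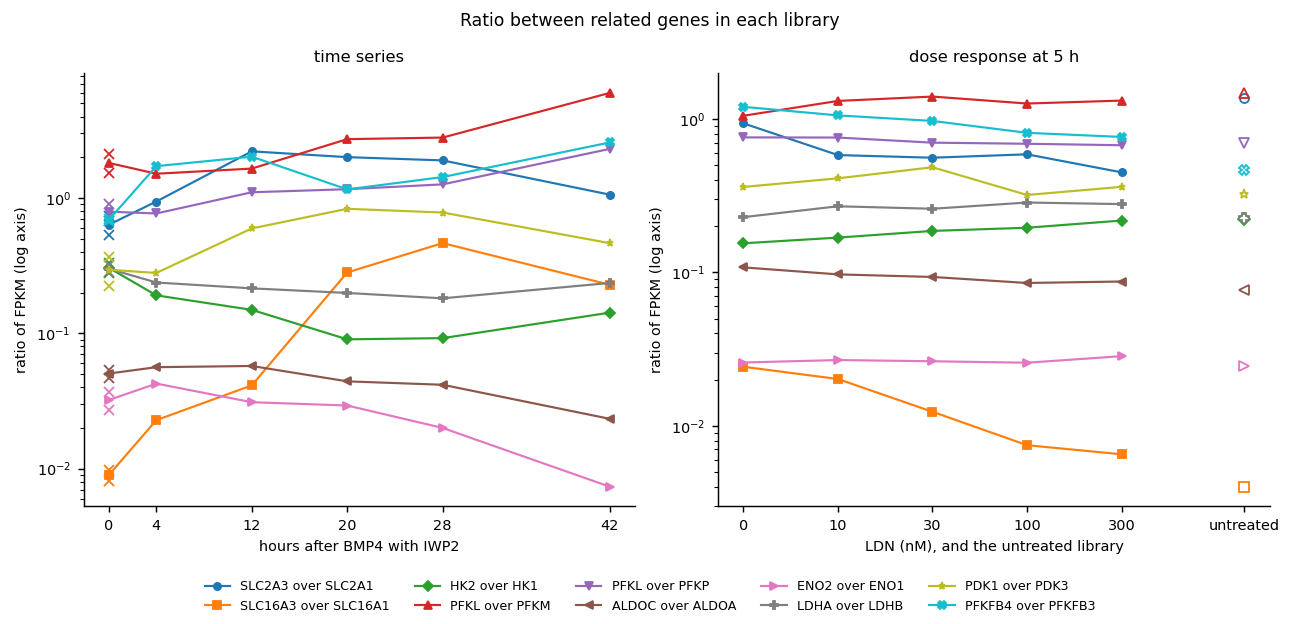
Ratio of FPKM (log axis) between related genes against hours (left, crosses are the 0 h libraries) and LDN dose (right, open symbols are the untreated library). SLC16A3 over SLC16A1 goes from 0.00813 and 0.00976 at 0 h to 0.464 at 28 h, and over dose from 0.0242 without LDN to 0.00651 at 300 nM.

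Genes around the group were taken from context lists, which were chosen with earlier results of these data known. Of 9 oxygen-sensing genes, HIF1A, the regulated subunit of HIF-1, was at 315 and 227 CPM at 0 h and between 183 and 278 CPM later (adjusted p = 0.964). EPAS1, which encodes HIF-2α, was at 3.01 and 2.40 CPM at 0 h, 7.79 CPM at 20 h and 2211 CPM at 42 h, a fitted log2 change of 9.73 ± 1.07 (adjusted p = 0.000384). EGLN1, the main HIF prolyl hydroxylase (0.56), and VHL, which targets hydroxylated HIF for degradation (0.53), also rose, and ARNT2, a partner of HIF (−2.17), and HIF3A, a further HIF subunit (−1.78), fell. Over LDN dose, EGLN1 (0.48) and EGLN2 (0.19) rose and ARNT (−0.38), ARNT2 (−0.26) and 1 more gene of the list fell. Thus 3 of the 9 rose and 2 fell over hours, where 19.2% of all genes rose and 17.5% fell. Over dose 2 rose and 3 fell, where 10.4% of all genes rose and 10.9% fell.

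Of 19 further hypoxia targets tested over hours, 10 rose and 2 fell, where 19.2% of all genes rose and 17.5% fell. Their median fitted change was 1.35, against 0.00 for all genes. The largest rises were CA12, a carbonic anhydrase (5.47), MXI1, a MYC antagonist (4.78), and NDRG1 (4.47), and the falls AK4, an adenylate kinase (−3.20), and FAM162A (−0.94). Over LDN dose 3 of 18 rose and 5 fell, where 10.4% of all genes rose and 10.9% fell. AK4 (1.07) and STC2, a secreted glycoprotein (0.85), rose, and LOX, a collagen crosslinking enzyme (−1.30), and BHLHE40, a transcription factor (−1.26), fell.

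Among other enzymes of glycolysis and gluconeogenesis, PKLR, the pyruvate kinase of liver and red cells, fell over hours (−2.98). Over dose PCK2, a mitochondrial enzyme of gluconeogenesis (0.26), rose and PFKFB2 (−0.49) fell. Of 9 genes of pyruvate entry to mitochondria, MPC2, a subunit of the pyruvate carrier (1.74), and PDK2 (0.85) rose over hours, where 19.2% of all genes rose. Among genes of the pentose phosphate pathway, PGLS, which acts in its oxidative part, rose (1.297).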

How the data were processed

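After trimming with Cutadapt, the authors mapped reads to GRCh38 with STAR 2.7.8a and ENSEMBL annotation (release not given in the sources used here) and estimated expected counts and FPKM per gene with RSEM 1.3.3. The deposited expected counts are whole numbers and not scaled between libraries. The deposited FPKM values, normalized by the authors for depth and gene length, were used for ratios between genes and an alternative. Counts ran from 37957385 to 71333471 per library over time and from 15600931 to 33989998 over dose, so that 3 counts stood for 0.0421 to 0.0790 CPM and 0.0883 to 0.192 CPM, which covers counting error only. No column of samples was left unmapped (0), and 5 features that are not human were left out.

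Levels are CPM scaled by TMM factors, and log2 ratios, which set the 2-fold limit, had 0.5 CPM added. Folds printed beside single genes are ratios of CPM with none added. Trends over hours (7 libraries) and over dose steps (0 to 300 nM as 4 equal steps, 5 libraries with BMP4) were fitted to every gene whose mean reached 1 CPM with edgeR 4.0.16 in R 4.3.3 (quasi-likelihood test, Benjamini-Hochberg adjustment over all genes at 0.05). DESeq2 1.42.0, other scalings, filters, time and dose scales, FPKM, a 1.5-fold limit, the untreated library as a step and each library left out served as alternatives. Both tests were run on simulated data with changes linear in hours or dose step, so curved profiles were not covered. The test over hours found 6 of 50 genes at a log2 change of 1, 31 at 2 and 46 at 3. It made 4 false calls among the unchanged genes of the 15976 simulated. The test over dose found 29 of 50 at 0.5 and 41 at 1, with 17 false calls among the unchanged genes of the 14907 simulated. The test over hours thus had little power for small changes.

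The 32 genes and the context lists (oxygen sensing, further hypoxia targets, other glycolysis and gluconeogenesis enzymes, pyruvate entry to mitochondria, pentose phosphate pathway, cell type markers) were chosen with earlier results of these data known. All 32 are named, and of each context list up to 3 genes a direction with the largest slope among those past the threshold over hours, and up to 2 over dose, except for genes not reported here. HIF1A was named after its values were seen, as were the ratio pairs, the counts of genes outside both 0 h libraries or ordered at every dose step, the motifs and the windows shown. Positions are those of GENCODE release 44, and upstream sequences those of RefSeq on GRCh38.p14. Named copies were found for 16 of the 32 genes. Only for BNIP3 did they hold over 5% of the summed counts. Exons of another gene with over 5% of their counts overlapped 6 of the 32, of which SLC16A3 is described in the text. The others are PFKM, PDK1, PDHA1, CA9 and ANKRD37.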

Additional observations from a re-analysis of the deposited data

How the results depend on the processing

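The counts of genes that rose or fell over LDN dose stayed within 1.5 times their value in every alternative run, as did the count that rose over hours. The count that fell over hours was 3 with log2 of hours plus 4 as the scale (against 12.3% of all genes). With each library left out in turn, it ran from 3 to 6, with 3 without 0 h replicate 1 and 3 without 28 h. The count that rose over hours ran from 4 to 7, and over dose 7 to 9 genes rose and 2 to 4 fell. The shares of all genes in these leave-out runs are not given, so the ranges describe only how stable the counts were. At a 1.5-fold limit the genes past it were 13 from 0 h to 42 h (against 48.0% of all genes), 4 from 0 h to 4 h (against 13.0%) and 9 between untreated and BMP4 (against 17.9%), and from FPKM the count at 4 h was 2 (against 6.33%). Some fitted changes over hours that had not passed turned sign. HK1 was −0.027 on library totals. BNIP3 was 0.00503 without a filter, 0.09 and 0.14 without 0 h replicate 1 or 2, 0.07 without 28 h and, without 42 h, −1.66. EGLN3 was −0.28 and −0.14 without 0 h replicate 1 or 2 and 2.56 without 42 h. The cause was not tested. Signs were followed only for genes called under at least 1 setting.

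A joint test of line and curve in hours gave 9 rising and 7 falling genes by the sign of the line (against 25.0% and 22.7% of all genes). The GPI call was lost without 0 h replicate 1 (−0.40), 4 h (−0.49), 12 h (−0.47), 28 h (−0.42) or 42 h (−0.50). The LDHA call was lost without 0 h replicate 1 (−0.64) or 2 (−0.54), 4 h (−0.73), 12 h (−0.69) or 28 h (−0.66). The SLC16A1 call was lost without 0 h replicate 1 (−0.83) or 2 (−1.02) or 28 h (−0.98), and that of PFKFB4 without 0 h replicate 1 (0.71) or 2 (0.87), 28 h (0.97) or 42 h (1.14). Over dose, SLC2A3 (0.23) and LDHA (0.17) passed without 0 nM, and LDHB (−0.13) without 10 nM. With DESeq2 size factors or library totals, tried after seeing the data, 17 or 15 genes lay below both 0 h libraries at 4 h (against 33.8% or 23.6% of all genes) and 6 or 8 above (against 33.3% or 42.9%). With either, 8 genes were higher at every dose step (against 7.61% or 6.65%) and 4 lower (against 7.14% or 7.87%). No paired analysis was possible because replicate numbers exist only at 0 h.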
